A study of Mus musculus with 6 samples.

Results

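RNA for 4 inflammatory chemokines (Ccl3, Ccl4, Ccl5 and Xcl1) and 5 chemokine receptors (Cxcr3, Cxcr6, Ccr2, Ccr4 and Ccr8) was measured in mouse CD8+ T cells. The 9 genes were taken by name from a table of 23951 rows, and each matched 1 row. Splenic naive CD8+ T cells, sorted as GFP+, TCRbeta+, CD62Lhi and CD44lo-med, were cultured for 72 h with the cytokines IL-7 and IL-15, which sustain T cells and their homeostatic division. Mice of both groups carried hCD2-Cre and Rosa26-lsl-GFP. One group was wild-type (WT) for Tcf1 and Lef1, and the other carried floxed alleles of both and is labelled Tcf1-/-Lef1-/- (called DKO here), with 3 libraries each. The Cre is driven by human CD2 sequences, which are active in developing and mature T cells. No source used here gives the ages of the mice, and the labels do not say how many animals a group holds. The female transcript Xist and the Y-linked Ddx3y differed between libraries within each group (values beside Cxcr3), so the 3 libraries of a group did not all come from 1 mouse. The p-values therefore cover the spread among these libraries, which may in part be technical.

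Chemokines are small secreted proteins that guide migrating leukocytes, and their receptors are G protein-coupled proteins on the cell surface. Ccl3, Ccl4 and Ccl5 are released by activated and memory CD8+ T cells, and Xcl1 acts on Xcr1 of cross-presenting dendritic cells. Cxcr3 (ligands Cxcl9 and Cxcl10), Cxcr6 (ligand Cxcl16) and Ccr2 (ligand Ccl2) lead T cells into inflamed tissue, whereas Ccr4 (ligands Ccl17 and Ccl22) and Ccr8 (ligand Ccl1) are best known from regulatory and type-2 helper T cells. Tcf1 (gene Tcf7) and Lef1 are related DNA-binding factors of T cells.

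The unit of the table is FPKM, fragments scaled by transcript length and by library, so levels of different genes can be set side by side, but absolute depth is unknown. Libraries carry the column numbers 0 to 2, and the labels' replicate numbers could not be matched to these. Between 10473 and 10551 rows reached 1 FPKM per library. Of the targeted genes, Tcf7 measured 564, 555 and 532.1 FPKM in WT against 288, 270 and 277 in DKO (log2 fold change of -0.98; adjusted p by limma = 0.0041), and Lef1 measured 132, 105 and 157 FPKM in WT against 48.5, 51.8 and 52.2 in DKO (log2 fold change of -1.33; adjusted p by limma = 0.0066). Both were lower in every DKO library, though reads remained, and no value per exon was used here. Before culture the authors' deposited table gives Tcf7 a log2 fold change of -0.10 (q = 0.53, not listed), with computed levels of 709.96 FPKM in WT and 694 FPKM in DKO, and Lef1 one of -1.51 (q = 0.00031, listed as lower). The group labelled DKO was thus not lower in Tcf7 RNA at 0 h by the authors' calls. The CD8+ T cell markers Cd8a (551 to 665 FPKM) and Cd3e (309 to 442 FPKM) were present in all 6 libraries. Tests used limma on log2(FPKM + 1) across the 10723 rows whose mean over the 6 libraries reached 1 FPKM, two-sided, with Benjamini-Hochberg adjustment and a threshold of 0.05. In bulk RNA, fewer cells that express a gene and less RNA per cell cannot be told apart.

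The comparison of DKO with WT at 72 h addresses what the labelled loss of both factors changed in cells under homeostatic cytokines. Ccl5, Ccl4, Cxcr6 and Ccr2 rose in DKO cells, by 5.83-fold, 3.74-fold, 2.06-fold and 2.64-fold in mean FPKM. Cxcr3, Xcl1 and Ccr4 did not pass the threshold, and Ccl3 and Ccr8 lay below the filter. Of the 9 genes 7 were tested, of which 4 were called higher and 0 lower, with 6 at an unadjusted p under 0.05. Among all 10723 rows 4.31% were called higher and 6.36% lower, and 2808 rows had an unadjusted p under 0.05 by limma. Ccl4 and Ccr4 had a WT mean under 1 FPKM and passed the filter through their level in DKO, so the 7 are not a neutral sample of the 9. The median log2 fold change was 1.23 over the 3 chemokines tested, 0.87 over the 4 receptors tested and 0.01 over all rows tested. The first of these is the value of Ccl4 itself, and the second lies midway between those of Ccr4 and Cxcr6.

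**Figure D1:**
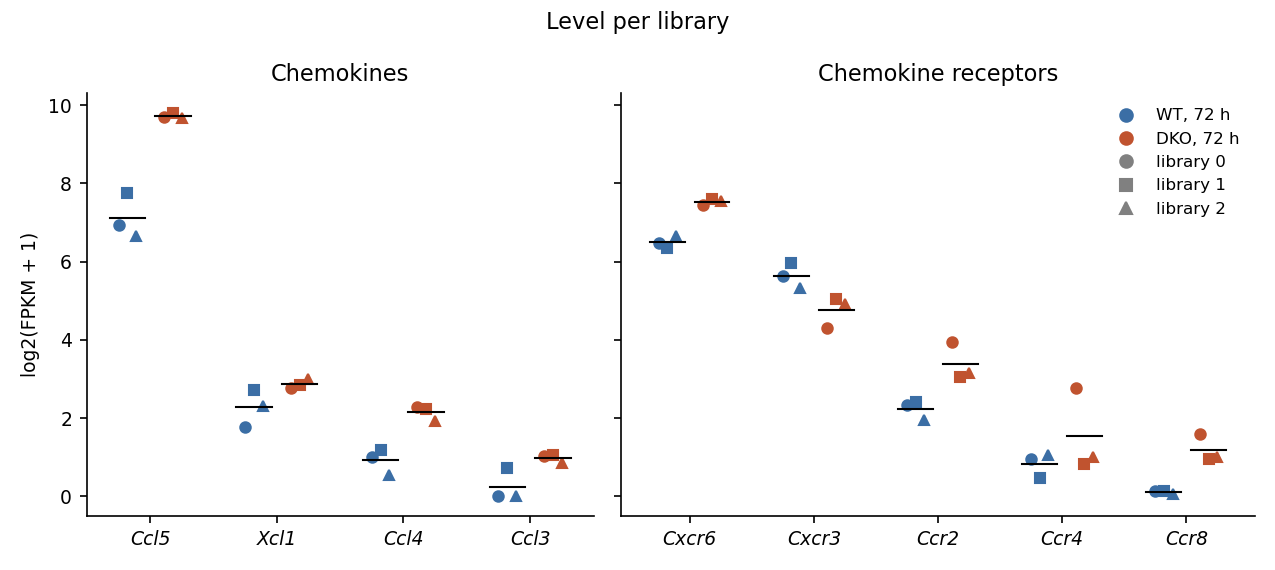
Level of each gene in each library at 72 h as log2(FPKM + 1), with WT in blue and DKO in red, libraries 0, 1 and 2 as circles, squares and triangles, and the mean of each group on the log scale as a black line. Groups lie apart for 8 genes, Cxcr3 alone among them with DKO lower, and overlap for Ccr4, where DKO library 0 stands high.

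Ccl5, a chemokine that memory CD8+ T cells store as RNA, was by far the most abundant of the 4 chemokines. It read 123, 214 and 99.6 FPKM in WT libraries 0, 1 and 2 against 834, 896 and 815 in DKO libraries. Every DKO library lay above the highest WT library, and the WT libraries scattered more (SD 60.7 FPKM, n = 3) than the DKO libraries (SD 42.2 FPKM, n = 3). The log2 fold change came to 2.61, with SE 0.28 and adjusted p = 0.0057 by limma. The call held with any 1 library left out and was lost (limma adjusted p = 0.11) without WT library 0 and DKO library 2 together. These are the libraries of each group with the largest share of FPKM in small RNA rows (15.8% and 19.6%). The log2 fold change was then 2.56. That smaller fit called 5 rows higher and 5 lower in the whole table, so nearly all calls were lost, and no other pair was left out. Without small RNA rows the limma adjusted p of Ccl5 was 0.0014. By mean level Ccl5 ranked 671 among all rows in WT and 133 in DKO, and 0.662% of the rows tested had a larger log2 fold change.

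Ccl4, which lies beside Ccl3 and also attracts T cells and monocytes, stood at 1.03, 1.29 and 0.466 FPKM in WT against 3.85, 3.75 and 2.80 in DKO. The lowest DKO library was above the highest WT library. DKO minus WT came to 1.23 on the log2 scale, with SE 0.21 and adjusted p = 0.020 by limma, and the call was lost without WT library 0 (adjusted p = 0.055), DKO library 0 (adjusted p = 0.079) or DKO library 1 (adjusted p = 0.084). Ccl3 was listed at 0, 0.667 and 0 FPKM in WT and stood at 1.05, 1.07 and 0.825 FPKM in DKO. It was not tested by limma with the filter. An exact permutation test of its difference in mean FPKM, two-sided, gave p = 0.1, the smallest value that 3 against 3 libraries allow, and limma without the filter gave a log2 fold change of 0.74 (SE 0.22, adjusted p = 0.13). Ccl3 and Ccl4 are paralogs, and no source used here says how the authors' counting treated shared reads.

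Xcl1, the ligand of Xcr1, stood at 2.45, 5.57 and 3.99 FPKM in WT against 5.89, 6.18 and 7.08 in DKO. The groups did not overlap, but WT library 1 lay just below the DKO libraries, and the log2 fold change of 0.61 (SE 0.24) did not pass (limma adjusted p = 0.18). Gm20743, an antisense transcript, shares 98 of the 523 exonic bases of Xcl1 in GENCODE M21, and no source used here says that strand was used in counting, so reads of both cannot be told apart. Within DKO cells the order of the chemokines was Ccl5, Xcl1, Ccl4 and Ccl3 with no overlap between neighbours. In WT cells the order was the same, and Ccl4 and Ccl3 overlapped. Ccl5 made up 95.7% to 97.2% of the summed FPKM of the 4 chemokines in WT and 98.7% to 98.8% in DKO, while the sum lay between 104.1 and 221.9 FPKM for WT and between 825.6 and 906.5 FPKM for DKO.

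Among the receptors Cxcr6, which binds the membrane-held chemokine Cxcl16 and marks tissue-resident T cells, had the highest level in both groups. It stood at 88.4, 79.97 and 101 FPKM in WT against 175, 194 and 186 in DKO. The DKO libraries were all above the WT libraries, with little scatter in either group. The log2 fold change came to 1.04, with SE 0.11 and adjusted p = 0.0050 by limma. This call too held with any 1 library left out. It was lost, at a limma adjusted p of 0.11 and a log2 fold change of 1.03, when the same pair of libraries was left out. The gene overlaps Fyco1 on the opposite strand, and the annotated exons of the genes share 0 bases.

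Cxcr3, the receptor that brings effector CD8+ T cells to sites where interferon-induced chemokines are made, stood at 48.5, 61.4 and 39.4 FPKM in WT against 18.8, 32.3 and 29.1 in DKO. It was the only one of the 9 genes with every DKO library below every WT library. Its log2 fold change of -0.89 (SE 0.25) did not pass in the fit over all rows (limma adjusted p = 0.081) and passed when small RNA rows were left out of the table (adjusted p = 0.048). Cxcr3 lies on the X chromosome, and libraries of both groups differed in Xist, which read 55.01, 69.6 and 1.69 FPKM in WT libraries 0, 1 and 2 against 56.9, 1.46 and 0.017 in DKO libraries 0, 1 and 2. Ddx3y read 15.6, 0 and 20.5 FPKM in the WT libraries against 0.021, 21.96 and 27.7 in DKO, and WT library 0 held both transcripts. The part of this difference in the level of Cxcr3 was not tested. Its share of the summed FPKM of the 5 receptors was 27.4% to 42.02% in WT and 8.70% to 13.8% in DKO, while that of Cxcr6 was 54.7% to 69.8% in WT and 81% to 82.6% in DKO.

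Ccr2, which leads monocytes and effector T cells along Ccl2, stood at 4.04, 4.30 and 2.87 FPKM in WT against 14.3, 7.36 and 7.95 in DKO. The groups did not overlap, and DKO library 0 stood above the other DKO libraries by more than these stood above WT. The log2 fold change came to 1.16, with SE 0.26 and adjusted p = 0.045 by limma. The call was lost without any 1 of the 6 libraries, with adjusted p from 0.065 without DKO library 0, where the log2 fold change was 0.88, to 0.13 without WT library 2. Chemokine receptor genes include close paralogs, so the value of Ccr2 may include reads of another gene.

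Ccr4 stood at 0.949, 0.378 and 1.10 FPKM in WT against 5.88, 0.783 and 1.004 in DKO. DKO libraries 1 and 2 lay within the range of WT, and DKO library 0 stood apart. DKO minus WT came to 0.71 on the log2 scale, with SE 0.55 and adjusted p = 0.46 by limma, and 0.086 (adjusted p = 0.85) without DKO library 0. Ccr8 stood at 0.110, 0.103 and 0.0446 FPKM in WT against 2.04, 0.944 and 1.02 in DKO, so WT cells held close to no signal and all DKO libraries were higher. It lay below the filter, and the exact permutation test of its difference in mean FPKM, two-sided, gave p = 0.1, the smallest possible here. Limma without the filter gave a log2 fold change of 1.07 (SE 0.18, adjusted p = 0.031). In DKO cells the receptors ranked Cxcr6, Cxcr3, Ccr2, Ccr4 and Ccr8, with overlap between Ccr4 and Ccr8, and in WT cells the order was the same with no overlap between neighbours.

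Across the 9 genes the groups did not overlap for 8, of which 7 were higher in DKO. Of the 7 genes tested 6 had groups that did not overlap, where 34.1% of all rows tested did, and 5 of the 7 had DKO higher, against 17.0% of all rows tested. Ccl4, among these 5, passed the filter through its level in DKO, as did Ccr4 among the 7, so the shares are not on equal terms. Both genes below the filter were higher in DKO in all libraries, as were 5.57% of the rows below the filter that had any signal.

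DKO library 0, which was the highest DKO library for Ccr2, Ccr4 and Ccr8, also had the highest summed FPKM of CD4+ and of regulatory T cell markers. The 3 CD4+ T cell markers (Cd4, Zbtb7b and Cd40lg) summed to 3.44 FPKM in DKO library 0, to 0.896 and 1.02 FPKM in DKO libraries 1 and 2, and to 0.164 to 0.683 FPKM in WT. Cd4 itself stood at 0.018, 0 and 0.0735 FPKM in WT against 1.90, 0.389 and 0.502 in DKO, and none of the 3 passed the filter. The groups overlapped for the other markers of this list. Cd40lg stood at 0.399, 0.0934 and 0.487 FPKM in WT against 1.45, 0.301 and 0.462 in DKO. Zbtb7b was not highest in DKO library 0, at 0.0599, 0.0701 and 0.122 FPKM in WT against 0.0817, 0.206 and 0.0505 in DKO. The 5 regulatory T cell markers (Foxp3, Il2ra, Ikzf2, Ikzf4 and Ctla4) summed to 44.7 to 46.3 FPKM in WT against 177 to 240.1 in DKO, highest in DKO library 0. By limma 4 of the 5 were called higher. Foxp3 read 4.22, 1.46 and 5.38 FPKM in the WT libraries against 116, 97.2 and 99.5 in the DKO libraries, so it was high in each DKO library. Il2ra was less even among the DKO libraries, at 72.7, 39.9 and 42.5 FPKM. Ikzf2, the marker that was not called, had a lower mean in DKO (3.12 against 4.20 FPKM), with groups that overlapped. Of the 8 NK cell markers 2 passed the filter and 0 were called, with a sum of 3.14 to 7.57 FPKM in WT and 5.74 to 12.7 FPKM in DKO. Klra4 was listed at 0 in all 6 libraries and Ncr1 stood at 0.178 FPKM or less. Tyrobp stood at 2.31, 4.72 and 1.88 FPKM in WT against 10.6, 6.70 and 4.01 in DKO (limma adjusted p = 0.17). Klri2, below the filter, stood at 0.0703, 0.0132 and 0.0687 FPKM in WT against 0.537, 0.751 and 0.640 in DKO. Fcer1g was level at means of 1.24 FPKM in both groups, and Klrb1c went the other way, with means of 0.206 and 0.0686 FPKM in WT and DKO. Of the 10 measured myeloid markers 3 passed and 0 were called, with sums of 72.9 to 103.8 FPKM in WT and 68.2 to 116.5 FPKM in DKO, nearly all from Cst3. Of the 5 B cell markers 1 passed and 0 were called, with Ms4a1 and Pax5 listed at 0 throughout. The 1 that passed, Cd79b, stood at 13.1 to 20.9 FPKM in WT and 17.8 to 26.5 FPKM in DKO. Of the 4 basophil and mast cell markers 2 passed and 0 were called. Cpa3 stood at 0.125, 5.44 and 2.21 FPKM in WT against 3.23, 2.99 and 0.176 in DKO. Ms4a2 was higher in every DKO library, at 1.38, 0.615 and 0.993 FPKM in WT against 1.62, 1.66 and 2.45 in DKO (limma adjusted p = 0.16). Fcer1a and Mcpt8 lay below the filter, with groups that overlapped. Clec9a, which marks cross-presenting dendritic cells, was listed at 0 throughout and S100a8 in 5 of the 6 libraries. DKO library 0 was also the DKO library with high Xist (56.9 FPKM) and with Ddx3y at 0.021 FPKM. The part of such cells, or of this difference, in the levels of Ccl3, Ccl4, Ccl5, Ccr2, Ccr4 and Ccr8 was not tested.

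RefSeq promoter windows of GRCm38.p6, from 250 bases before to 50 bases after the start, were matched by symbol for 7 of the 9 genes. Ccl4 and Ccl5, both called higher at 72 h, had no window, so the motif matches do not cover them. Motifs were searched on both strands, first CTTTGAT and CTTTGAA for TCF/LEF factors and TGTGGT for RUNX factors. CTTTGAT and CTTTGAA share their first 6 letters. Other forms of the TCF/LEF motif, such as CTTTGTT and CTTTGTA, were not searched and are not in capitals. The Cxcr6 window ends in aacaaag, the reverse complement of CTTTGTT, and the Cxcr3 window holds ctttgta. Windows are shown for the chemokine Ccl3, the receptor that rose with the smallest p (Cxcr6) and the receptor with the opposite direction (Cxcr3). That of Ccr4, which holds CTTTGAA, is also shown. Matches to the 3 motifs searched first, or to their reverse complements, are in capitals.
Ccl3, chr11:83649329-83649628, minus strand: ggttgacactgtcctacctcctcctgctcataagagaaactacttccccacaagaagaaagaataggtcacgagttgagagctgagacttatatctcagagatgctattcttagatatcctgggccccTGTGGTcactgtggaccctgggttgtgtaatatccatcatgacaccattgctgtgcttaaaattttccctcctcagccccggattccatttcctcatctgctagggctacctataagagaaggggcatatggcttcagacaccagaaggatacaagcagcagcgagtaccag
Cxcr6, chr9:123806227-123806526, plus strand: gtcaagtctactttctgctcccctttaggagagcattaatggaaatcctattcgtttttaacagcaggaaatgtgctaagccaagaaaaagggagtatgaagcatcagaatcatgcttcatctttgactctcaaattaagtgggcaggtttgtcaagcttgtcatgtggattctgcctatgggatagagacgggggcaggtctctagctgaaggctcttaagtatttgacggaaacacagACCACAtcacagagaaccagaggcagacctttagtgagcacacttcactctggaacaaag
Cxcr3, chrX:101734098-101734397, minus strand: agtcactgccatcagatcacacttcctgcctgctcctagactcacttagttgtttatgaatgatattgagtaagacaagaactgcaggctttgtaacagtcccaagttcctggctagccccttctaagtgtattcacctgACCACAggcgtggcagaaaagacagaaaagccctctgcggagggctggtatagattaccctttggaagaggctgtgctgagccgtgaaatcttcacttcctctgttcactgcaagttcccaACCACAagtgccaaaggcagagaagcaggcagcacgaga
Ccr4, chr9:114496495-114496794, minus strand: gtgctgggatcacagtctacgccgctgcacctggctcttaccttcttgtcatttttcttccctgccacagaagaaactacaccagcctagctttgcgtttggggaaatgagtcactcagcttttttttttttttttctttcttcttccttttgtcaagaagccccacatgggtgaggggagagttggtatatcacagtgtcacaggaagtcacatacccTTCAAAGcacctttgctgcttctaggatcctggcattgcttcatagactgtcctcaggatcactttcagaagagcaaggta
CTTTGAT was found in 0 of the 7 windows, where 3.73% of all 32851 promoter windows hold it. CTTTGAA was found in Ccr4 alone, as its reverse complement 31 bases before the RefSeq start, where 5.14% of all windows hold it. TGTGGT was found in 4 of the 7, those of Ccl3, Xcl1, Cxcr6 and Cxcr3, where 16.8% of all windows hold it. Cxcr3, which was lower in every DKO library, held it at 2 places. Ccr2 and Ccr8 held none of these 3 motifs in these windows, though the Ccr2 window holds ctttgtt, a form that was not searched. The T-box motif TCACAC was found in Xcl1 and Cxcr3 (14.5% of all windows), the GATA motif AGATAA in Ccr2 and Ccr8 (11.2%), the AP-1 motif TGANTCA, which reads alike on both strands, in Ccr4 (7.81%), the NFAT motif GGAAA in 5 of the 7 (61.3%) and the kappa B motif, GGG and CC with 5 bases of any kind between them, in Cxcr3 and Ccr8 (50.8%). The RefSeq start of Ccr4 lies 8.4 kb from its GENCODE M21 start, inside the gene as GENCODE places it, so its window is not the sequence before that other start. For the other 6 genes the starts lie 2 to 233 bases apart. A match is a description of the letters and not of binding.

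Several members lie in clusters of related genes. The positions given come from GENCODE M21 for GRCm38, while the submitters' processing notes name both mm10 and mm9. Ccl5 (chromosome 11, 83525778 to 83530518, minus strand) starts 132.1 kb from Ccl4 (chromosome 11, 83662584 to 83664683, plus strand), and Ccl3 (83647844 to 83649355, minus strand) starts 13.2 kb from it. Ccl6 and Ccl9 lie between Ccl5 and Ccl3, and stood at mean levels of 0.338 and 0.490 FPKM in WT and 0.148 and 0.624 FPKM in DKO, with groups that overlapped. The 3 members around them were higher in every DKO library.

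Cxcr6 (chromosome 9, 123806475 to 123811760, plus strand) and Ccr2 (chromosome 9, 124101950 to 124113557, plus strand) belong to a cluster of receptor genes. Ccr9, the receptor for homing to the gut, starts 423.5 kb before Ccr2 and rose from 44.2 ± 9.64 to 122 ± 29.2 FPKM (SD, n = 3; limma adjusted p = 0.016). Xcr1, Ccr1, Ccr1l1 and Ccr3, which lie between Cxcr6 and Ccr2, had means of 0.348 FPKM or less in both groups. Ccr9, Cxcr6 and Ccr2 were each higher in every DKO library. Ccr4 (chromosome 9, 114490316 to 114504916, minus strand) and Ccr8 (chromosome 9, 120092114 to 120094906, plus strand) lie elsewhere on the same chromosome.

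**Figure D2:**
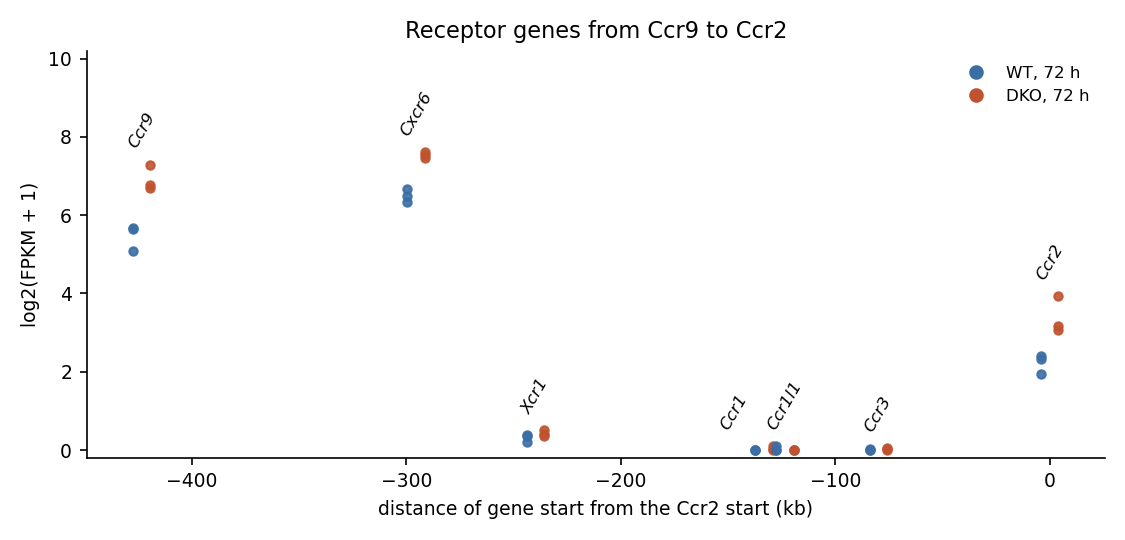
Level of each library as log2(FPKM + 1) against the distance of the gene's start from that of Ccr2 in kb, WT in blue and DKO in red, shifted by a few kb to the left and right so that both can be seen. Ccr9, Cxcr6 and Ccr2 lie higher in all DKO libraries, and the genes between Cxcr6 and Ccr2 are near 0.

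Of the 37 other chemokine genes measured, 2 passed the filter and 0 were called by limma, and 19 were listed at 0 in all 6 libraries. The 2 that passed had an unadjusted p under 0.05 by limma, as did 2808 of all 10723 rows tested. The ligands of the receptors described here were low or without signal. Cxcl10 stood at 0.371 to 1.25 FPKM, Cxcl16 at 0.0218 to 0.189 FPKM, Ccl17 at 0.306 FPKM or less and Ccl22 at 0.0608 FPKM or less, while Ccl1 and Ccl2 were listed at 0 throughout. The 2 that passed were Ccl25, the ligand of Ccr9, with 3.07 ± 0.88 FPKM for WT and 1.67 ± 0.40 for DKO (SD, n = 3), and Ccl27a at 1.07 ± 0.011 and 1.78 ± 0.19 FPKM, with adjusted p of 0.14 and 0.086 by limma.

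Of the 19 other receptor genes measured, 7 passed the filter, of which 2 were called higher and 2 lower (4.31% and 6.36% of all rows tested), with a median log2 fold change of -0.01. Besides Ccr9, Cx3cr1, the fractalkine receptor of effector CD8+ T cells, rose from 0.46 ± 0.23 to 1.78 ± 0.53 FPKM (SD, n = 3; limma adjusted p = 0.047) and passed the filter through its level in DKO. Ccr7, for homing to lymph nodes, stood at 282, 279 and 327 FPKM in WT against 122, 143 and 134 in DKO (limma adjusted p = 0.0041). Cxcr5, for homing to B cell follicles, fell from 3.62 ± 0.64 to 1.33 ± 0.12 FPKM (SD, n = 3; limma adjusted p = 0.011). Cxcr4, the receptor of Cxcl12, went from 51.6 ± 3.84 to 54.3 ± 4.36 FPKM (SD, n = 3; log2 fold change of 0.07 with SE 0.094, adjusted p by limma = 0.65).

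**Figure D3:**
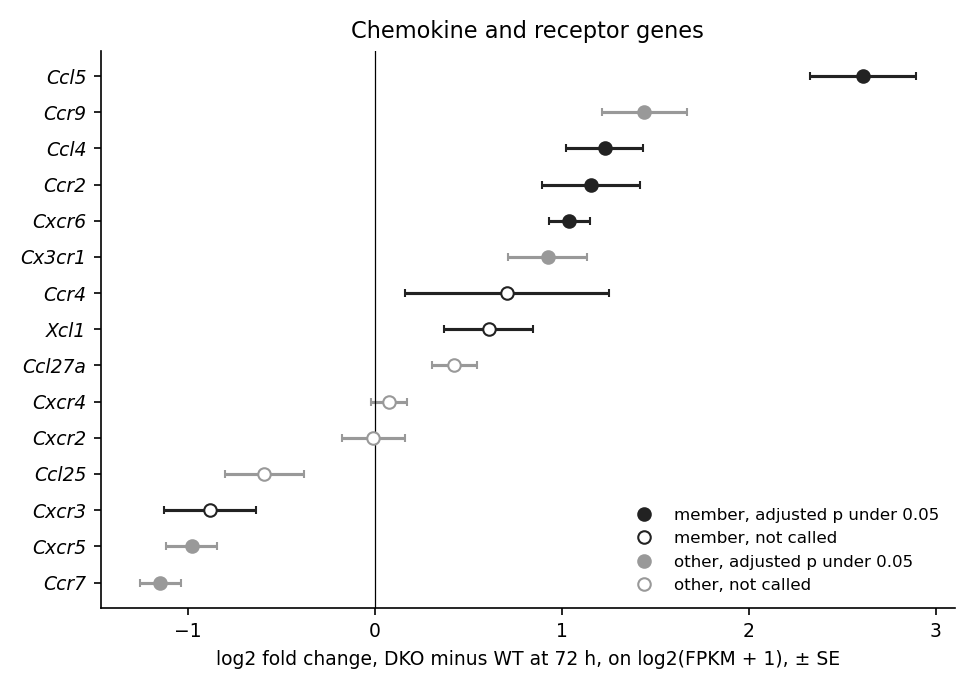
Log2 fold change of DKO minus WT at 72 h on log2(FPKM + 1), with its standard error, for 15 chemokine and receptor genes that passed the filter, the members described here in black and others in grey, filled where the limma adjusted p was under 0.05. Ccl5 stands apart at 2.61, and Ccr7, Cxcr5 and Cxcr3 are the lowest drawn.

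Of 39 measured genes that carry or limit receptor signals, 37 passed the filter, of which 3 were called higher and 2 lower, where 10.7% of all rows tested were called in either direction, with a median log2 fold change of -0.02. Gnaq, a G protein alpha subunit, rose from 2.44 ± 0.39 to 7.02 ± 0.97 FPKM (SD, n = 3; limma adjusted p = 0.0059), and Rgs2, which shortens signals of such subunits, from 3.08 ± 0.51 to 7.14 ± 2.39 FPKM (limma adjusted p = 0.044). Tpst1 and Tpst2 encode the enzymes that add sulfate to tyrosines of chemokine receptors and went in opposite directions, with Tpst1 at 5.89 ± 0.42 and 3.99 ± 0.16 FPKM (limma adjusted p = 0.023) and Tpst2 at 103 ± 5.54 and 149.7 ± 12.9 FPKM (limma adjusted p = 0.025) in WT and DKO. Rasgrp2, which activates Rap1 for integrin adhesion, fell from 68.8 ± 2.12 to 37.6 ± 1.13 FPKM (limma adjusted p = 0.0029). The most abundant of the list were Rac2, Srgn (serglycin, which binds chemokines in granules) and Gnai2, the G protein subunit through which these receptors signal, with log2 fold changes of 0.13, 0.23 and 0.04 that did not pass.

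The authors' deposited table also compares the genotypes before culture (0 h) and each genotype at 72 h with its own 0 h group. Its group values and q values are used here with no test of their own, the 4 comparisons share groups, and each pairwise run was scaled separately. Levels at 0 h were computed from the authors' group level at 72 h and their fold change. At 72 h the authors' deposited table lists 5 of the 9 genes as higher in DKO (Ccl4, Ccl5, Cxcr6, Ccr2 and Ccr4) and 0 as lower, against 0.747% and 1.77% of all rows (2.52% in either direction). All 603 genes of that list, and no others, had q under 0.05, at least 2-fold change and a group level of 1 FPKM or more in one of the groups. The shares count all 23951 rows, of which 13228 had a mean under 1 FPKM over the 6 libraries and 6964 were at 0 in each. Rows without signal could not be listed, so these shares are low beside those of expressed genes. The shares given below for 0 h and for culture also count all 23951 rows. By the authors' deposited table Cxcr3 had q = 0.00064 but a log2 fold change of -0.90, under that fold. Ccr4 was listed although DKO libraries 1 and 2 lay within the WT range.

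Before culture the authors' deposited table lists 7 of the 9 genes as higher in DKO than in WT and 0 as lower, where 1.31% and 1.08% of all rows are listed (2.39% in either direction). All 4 chemokines were among them. The authors' log2 fold change was 6.90 for Ccl5, a 119-fold difference (q = 0.00031), 5.24 for Ccl3 (q = 0.011), 4.14 for Ccl4 (q = 0.00031) and 1.44 for Xcl1 (q = 0.00031). Of the receptors, Ccr2 had an authors' log2 fold change of 5.32, Ccr4 of 2.1 and Cxcr6 of 2.0 in the deposited table (q = 0.00031 each). Cxcr3 (0.21, q = 0.19) and Ccr8 (1.06, q = 0.089) were not listed by the authors. Beside the 40.01-fold difference of Ccr2 in the authors' deposited table stands a computed WT level of 0.0739 FPKM at 0 h, close to no signal.

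In the authors' deposited table the gap between genotypes at 72 h was smaller than at 0 h for 7 of the 9 genes, all but Cxcr3 and Ccr8. These are the same 7 that were listed as higher at 0 h, and the share of all rows with a smaller gap was not counted. Computed WT levels at 0 h were low for Ccl3 (0.218 FPKM), Ccr2 (0.0739 FPKM) and Ccr4 (0.271 FPKM), so their folds at 0 h rest on little signal. Ccl5 had a log2 fold change of 6.90 at 0 h and 2.54 at 72 h. The gap of Ccl5 narrowed through WT cells, where the authors' group level was 7.73 FPKM at 0 h and 140 FPKM at 72 h (18.1-fold, q = 0.00020), while DKO cells stood at 966 and 842 FPKM in the authors' table (q = 0.16, not listed). For Ccl3 and Ccl4 it narrowed through DKO cells. In the authors' table Ccl4 stood at 48.7 FPKM in DKO at 0 h and 3.44 FPKM at 72 h, 14.2-fold lower, and in WT at 2.63 and 0.890 FPKM, 2.96-fold lower. Ccl3 stood at 8.58 FPKM in DKO at 0 h and 0.977 FPKM at 72 h, 8.79-fold lower by the authors' table (q = 0.00023), and at 0.218 and 0.214 FPKM in WT. Xcl1 stood at 19.9 and 6.34 FPKM in DKO (q = 0.00023) and at 7.03 and 3.84 FPKM in WT (q = 0.019, not listed), per the authors' table. These are differences between the authors' values, and no test of the change in gap was made here, where single libraries at 0 h were not used.

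The authors' deposited table lists 3 of the 5 receptors as higher after culture in WT and 3 in DKO. Cxcr3 was listed as higher at 72 h in both genotypes, from 10.3 to 47.8 FPKM in WT (4.63-fold) and from 12.5 to 26.5 FPKM in DKO (2.12-fold). Its levels in the genotypes were near each other at 0 h and apart at 72 h. Cxcr6 was at 37.2 FPKM at 0 h and 85.97 FPKM at 72 h in WT, against 155 and 183 in DKO, and the authors' table lists it for WT. Ccr2 went from 0.0739 to 3.59 FPKM in WT and from 3.10 to 9.79 FPKM in DKO, both listed by the authors. Ccr4 went from 0.271 to 0.776 FPKM in WT (not listed) and from 1.21 to 2.53 FPKM in DKO (listed by the authors), where DKO library 0 holds most of the latter. Ccr8 was at 0.378 and 0.0822 FPKM in WT against 0.826 and 1.32 in DKO, with neither listed by the authors. Its gap between genotypes was also wider at 72 h, at an authors' log2 fold change of 3.96 (q = 0.058) against 1.06 at 0 h (q = 0.089). Over the 9 genes the authors list 4 as higher and 1 as lower in WT (3.98% and 2.06% of all rows, 6.04% in all) and 3 as higher and 3 as lower in DKO (2.58% and 1.79%, 4.37% in all).

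**Figure D4:**
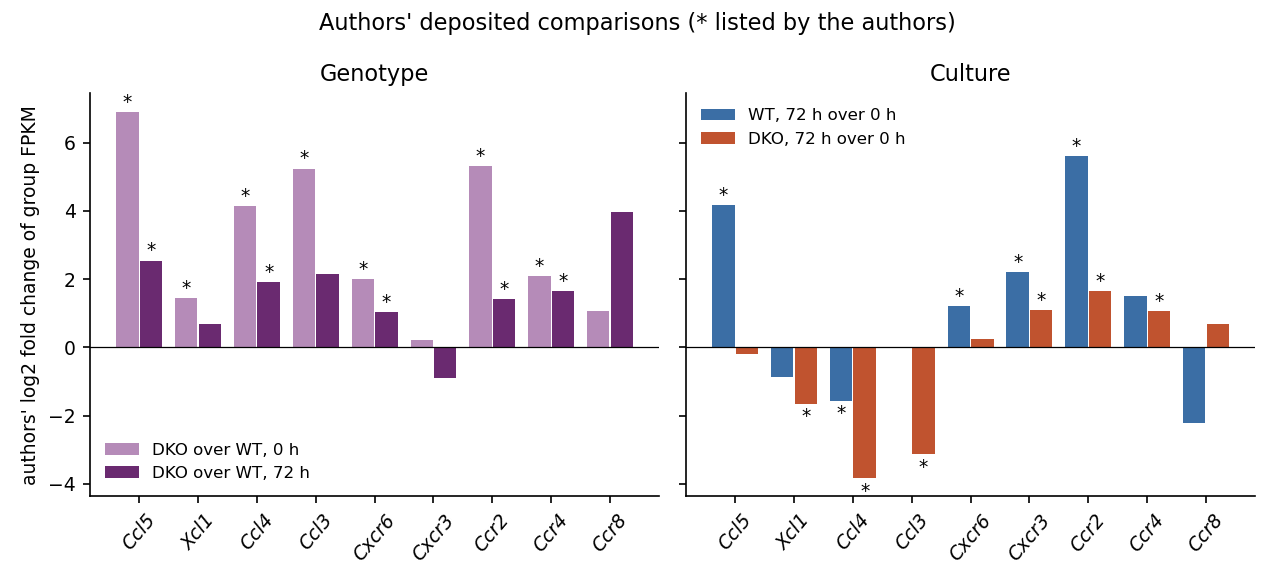
The authors' log2 fold changes of group FPKM, with no error of their own, for DKO over WT at 0 h and 72 h (left) and for 72 h over 0 h in WT and DKO (right), with a star where the authors list the gene. Bars at 0 h exceed those at 72 h for 7 genes, Ccl5 reaches 6.90, and Ccl4 and Ccl3 are the lowest bars for DKO in culture.

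The genes with the pattern most like that of each member were sought among all rows tested by the root mean square difference of log2(FPKM + 1) over the 6 libraries after subtracting each row's mean. Gzmb, which encodes the cytotoxic protease granzyme B, was nearest to Ccl5 (0.142), ahead of Frmd4b (0.283), with mean levels of 91.9 FPKM in WT and 491 FPKM in DKO. Cables1 (0.158) and Phlpp1 (0.185) were nearest to Ccl4, and Slc2a3, a glucose transporter gene (0.0824), and Ptpre (0.0881) to Cxcr6. Jun, a subunit of AP-1, was second nearest to Cxcr3 (0.135) after 2610318N02Rik (0.098), at mean levels of 66.9 FPKM in WT and 31.8 FPKM in DKO. Ly6g5b (0.0868) and Ptprj (0.105) were nearest to Ccr2. No row came closer than 0.331 to Ccr4 (Akr1c12), and the nearest to Xcl1 was 2310042E22Rik (0.162). These distances describe 6 libraries in 2 groups and carry no test.

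**Figure D5:**
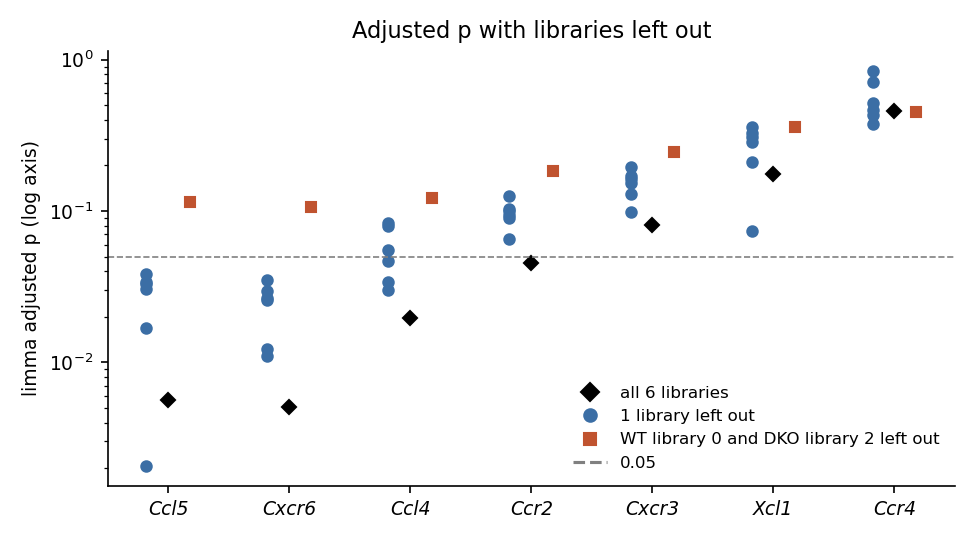
Limma adjusted p on a log axis for the 7 genes tested, with all 6 libraries (black), with each library left out in turn (blue) and without WT library 0 and DKO library 2 (red), and the threshold of 0.05 dashed. Ccl5 and Cxcr6 stay under the threshold with each single library left out, Ccl4 with 3 of the 6, and Ccr2 with none. Every gene drawn lies above it without WT library 0 and DKO library 2, a fit that called 5 rows higher and 5 lower in the whole table.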

How the data were processed

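RNA-seq libraries of the 2 groups at 72 h were sequenced on a HiSeq-2000, per the labels' protocols, with 3 libraries per group. Named in the submitters' processing notes are TopHat2 2.1.0, Cuffdiff 2.2.1 and FastQC, and mm9 beside mm10, without saying which step used which. No source used here names the annotation. The authors deposited 1 table of FPKM per library, as scaled in a pairwise Cuffdiff run, with log2 fold changes and q-values of comparisons, some with 0 h groups. Columns of single 0 h libraries, 6 in number, belong to no sample of the series and were not used. Absolute depth is unknown.

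Here rows whose mean reached 1 FPKM were fitted as log2(FPKM + 1), which understates changes of low genes, with limma 3.58.1 (mean-variance trend, R 4.3.3). Self-tests used simulated data. Windows, positions and figures used Python 3.11.15, pandas 2.3.3 and matplotlib 3.10.9. Members, lists and tests were chosen with earlier results of these data known. Named beside the members were, per list, up to 6 called genes by smallest p, the 3 most abundant, and the 2 rows of most like pattern. Genes outside this rule, such as the ligands of the receptors, were chosen after their values were seen or for their role. The values of 1 gene are not reported here. Alternatives covered pseudocounts, filters, scaling, variance priors, a replicate block, left-out libraries, small RNA rows, a fold threshold and the authors' calls.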

Additional observations from a re-analysis of the deposited data

How the results depend on the processing

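Directions of the 7 genes tested held in every alternative run, and depth is unknown, so low genes such as Ccl3, Ccr4 and Ccr8 have no counting interval. Calls of members numbered 4 higher and 0 lower. With a mean of at least 5 FPKM 2 were higher, since Ccl4 was then not tested and Ccr2 lost its call, and without small RNA rows 1 (Cxcr3, log2 fold change of -0.89) was lower. Without WT library 0 and DKO library 2 together 0 members were called, at log2 fold changes of 1.39 for Ccl4, 2.56 for Ccl5, 1.03 for Cxcr6 and 1.32 for Ccr2, and of all genes 5 were higher and 5 lower. With 1 library left out 2 to 3 members were higher and 0 lower. Ccl4 then ranged from 1.04 to 1.36, Ccl5 from 2.38 to 2.93, Cxcr6 from 0.96 to 1.13, Ccr2 from 0.88 to 1.32, Cxcr3 from -1.04 to -0.66, Xcl1 from 0.36 to 0.83 and Ccr4 from 0.086 to 1.06. Ccr2 kept its log2 fold change of 1.16 but lost its call with no filter (adjusted p = 0.076), a 5 FPKM filter (0.051), no trend (0.0502) and the replicate block (0.079). The cause was not tested. By the authors' deposited calls Ccr4 passed at 1.66.

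Over all genes 462 were higher and 682 lower. These became 111 and 245 with the column number as replicate block, 104 and 275 with a fold threshold of 2, and 179 and 424 by the authors' deposited calls, and 128 to 284 and 251 to 464 with 1 library left out. After each group's mean was subtracted, same-numbered libraries correlated at -0.168, 0.036 and -0.0143, and libraries of different number at -0.122 to 0.133. Such values from 3 libraries per group cannot settle whether column numbers pair the libraries. The block changed no other call of a member.

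Of the other chemokines and receptors 2 were higher and 2 lower. The higher count was 1 with a pseudocount of 0.1 or 0.5, a 5 FPKM filter, the replicate block or the fold threshold, 0 without WT library 0 and DKO library 2, and 0 to 1 with 1 library left out. The lower count was 1 with a 5 FPKM filter, the replicate block or the fold threshold and 0 without WT library 0 and DKO library 2. Of the signalling genes 3 were higher and 2 lower. The higher count was 1 with a 5 FPKM filter, the replicate block or the fold threshold, 0 without both libraries and 1 to 2 with 1 left out. The lower count was 1 with no filter, a 5 FPKM filter or the replicate block, 4 with a robust prior or without small RNA rows, 0 with the fold threshold or without both libraries and 1 to 2 with 1 left out.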

Other observations

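Of 20 measured cytokines, among them some that CD8+ T cells release together with these chemokines, 9 passed the filter, of which 2 were called higher and 1 lower by limma, where 4.31% and 6.36% of all rows tested were, with a median log2 fold change of -0.08. Csf1, the macrophage growth factor, stood at 0.0788, 0.443 and 0.461 FPKM in WT against 3.75, 7.67 and 7.73 in DKO (limma adjusted p = 0.0066), and it passed the filter through its level in DKO. Fasl, the death ligand, rose from 3.28 ± 0.67 to 61.4 ± 6.86 FPKM (SD, n = 3; limma adjusted p = 0.00046). Tnfsf8, the CD30 ligand, fell from 44.4 ± 5.91 to 17.4 ± 2.2 FPKM (SD, n = 3; limma adjusted p = 0.0048). Ltb, Il16 and Tgfb1 were the most abundant and did not pass.

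Ifng, which activated CD8+ T cells make together with Ccl3 and Ccl4, lay below the filter at 0.104, 0 and 0.127 FPKM in WT and 0.284, 0.807 and 0.701 FPKM in DKO. In the authors' deposited table its level in DKO at 72 h was 11.8-fold lower than at 0 h (q = 0.00023). Ifng was chosen after its values were seen. Ccrl2, a receptor-like gene that binds chemerin, was chosen likewise and stood at 0.301, 0.769 and 0.0891 FPKM in WT and 1.22, 1.39 and 0.831 FPKM in DKO, also below the filter.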
